A study of Mus musculus with 7 samples.

Results

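The replication-dependent histone genes of mouse podocytes are described here through DNase-Seq peaks at their promoters. They were taken as all protein-coding genes whose symbol begins with Hist1h, Hist2h, Hist3h or Hist4h in GENCODE vM21 (mm10), which gave 67 genes, and all 67 had a peak overlapping 500 nt either side of a transcription start site (TSS) in each of the 3 peak lists, among 21834 protein-coding genes for which this held. The Hist1 cluster on chromosome 13 held 54 of them (6 H1, 13 H2A, 15 H2B, 9 H3 and 11 H4 genes). Its genes fell into 4 groups more than 100000 nt apart, between 21715763 and 21837530 (18 genes), 22035164 and 22043676 (5 genes), 23531050 and 23764406 (29 genes) and 23933773 and 23934851 (2 genes). The Hist2 cluster on chromosome 3 held 10 genes, Hist3 on chromosome 11 held Hist3h2a and Hist3h2ba, and Hist4 on chromosome 6 held Hist4h4 alone.

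The cells were differentiated, conditionally immortalised mouse podocytes, a line that carries a thermosensitive T antigen, and they were arrested in reduced serum before 36 h in 5 mM glucose (NG) or 25 mM glucose. Of the cells in 25 mM glucose, some (HG+NT) were given a non-targeting mimic at 50 nM and others, also at 50 nM, a mimic of miR-93, the group HG+miR-93. No mimic is given for NG, so that glucose and transfection cannot be told apart between HG+NT and NG. Each condition had 2 replicates, and DNaseI-digested genomic DNA, 1 sample, was the input. The lists name no single replicate: 1 joint list per condition was analysed, hence no difference between conditions can be set against a spread between replicates, no test was run, and all intervals cover counting error only. Where 3 values follow each other below, they are in the order NG, HG+NT, HG+miR-93. DNaseI releases fragments where DNA is not wrapped around nucleosomes, and such fragments accumulate at active promoters.

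Replication-dependent histone genes supply the H2A, H2B, H3 and H4 proteins of the nucleosome and the H1 linker histones that bind between nucleosomes, and cells use them chiefly in S phase, when new DNA must be packaged. They lie in clusters, mostly lack introns and give mRNAs that end in a stem-loop instead of a poly(A) tail. At the clusters the coactivator NPAT and the processing factor FLASH (encoded by Casp8ap2) collect in histone locus bodies. H2A and H2B genes often stand head to head and share the stretch between their starts, where CCAAT boxes (bound by NF-Y), octamers (bound by Oct-1, the product of Pou2f1) and TATA boxes are known. H1 promoters carry an element of their own, the H1 box, and H4 promoters an element bound by HINFP. Replacement histones such as H2afz and H3f3b are made outside S phase.

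Of the 36 H2A and H2B genes, 24 formed 12 head-to-head pairs with 176 to 306 nt between the starts (median 259.5 nt), 11 on chromosome 13 and 1 on chromosome 3. The sequence between the starts of 3 pairs, read from GRCm38.p6 on the strand of the H2B gene, is shown for its arrangement, with capitals marking matches on either strand to the TATA box (TATAAA), the NF-Y box (CCAAT), the octamer (ATTTGCAT), the H1 box (AAACACA), part of the H4 element (GGTCC) and the E2F site (TTTGGCGC or else TTTCGCGC).
Hist1h2ac and Hist1h2bc (chr13:23683949-23684198, + strand): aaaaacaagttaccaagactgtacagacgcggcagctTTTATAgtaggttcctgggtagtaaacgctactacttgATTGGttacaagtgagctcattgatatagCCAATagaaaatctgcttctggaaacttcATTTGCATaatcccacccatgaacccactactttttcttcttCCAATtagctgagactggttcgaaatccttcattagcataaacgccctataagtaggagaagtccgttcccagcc
Hist1h2ae and Hist1h2bg (chr13:23571221-23571395, + strand): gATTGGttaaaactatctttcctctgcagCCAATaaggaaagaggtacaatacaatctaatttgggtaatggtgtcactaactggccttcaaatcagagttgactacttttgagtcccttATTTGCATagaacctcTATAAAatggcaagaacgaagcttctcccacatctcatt
Hist2h2ac and Hist2h2be (chr3:96220881-96221118, + strand): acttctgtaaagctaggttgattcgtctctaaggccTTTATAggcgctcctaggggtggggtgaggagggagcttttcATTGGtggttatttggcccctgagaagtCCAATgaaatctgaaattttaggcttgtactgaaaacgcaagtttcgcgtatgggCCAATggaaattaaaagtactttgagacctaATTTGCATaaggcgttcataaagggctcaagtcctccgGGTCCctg
The Hist1h2ac and Hist1h2bc stretch held 3 CCAAT matches, 1 octamer and 1 TATAAA match in 250 bases. The shorter stretch between Hist1h2ae and Hist1h2bg, 175 bases, held 2 CCAAT matches, 1 octamer and 1 TATAAA match. The TATAAA match read on the H2A strand, near the H2A start, in the first, and on the H2B strand, near the H2B start, in the second. The Hist2 stretch, 238 bases, held 3 CCAAT matches, 1 octamer, 1 TATAAA match and 1 GGTCC.

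The 250 bases before the starts of 4 single genes are shown for contrast: Hist4h4, the gene with the highest peaks of all 67, Hist1h4c, an H4 gene of the Hist1 cluster, Hist1h1c, which encodes a linker histone, and Hist1h4m, whose stretch also stands before Hist1h4n.
Hist4h4 (chr6:136804416-136804665, - strand): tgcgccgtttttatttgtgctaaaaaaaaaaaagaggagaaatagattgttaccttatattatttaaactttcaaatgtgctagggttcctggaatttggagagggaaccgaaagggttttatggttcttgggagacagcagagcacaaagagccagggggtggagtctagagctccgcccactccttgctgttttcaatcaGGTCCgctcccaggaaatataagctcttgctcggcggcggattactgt
Hist1h4c (chr13:23698455-23698704, - strand): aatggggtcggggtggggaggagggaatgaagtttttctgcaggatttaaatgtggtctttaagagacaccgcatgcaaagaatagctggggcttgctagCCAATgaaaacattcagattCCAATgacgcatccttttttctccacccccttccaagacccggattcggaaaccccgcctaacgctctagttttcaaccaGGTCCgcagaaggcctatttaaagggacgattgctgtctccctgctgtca
Hist1h1c (chr13:23738558-23738807, + strand): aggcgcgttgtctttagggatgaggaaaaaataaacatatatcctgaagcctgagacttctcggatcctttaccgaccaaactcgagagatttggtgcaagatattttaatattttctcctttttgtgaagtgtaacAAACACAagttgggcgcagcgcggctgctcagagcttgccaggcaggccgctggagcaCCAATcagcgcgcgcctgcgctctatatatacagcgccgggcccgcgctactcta
Hist1h4m (chr13:21811496-21811745, + strand): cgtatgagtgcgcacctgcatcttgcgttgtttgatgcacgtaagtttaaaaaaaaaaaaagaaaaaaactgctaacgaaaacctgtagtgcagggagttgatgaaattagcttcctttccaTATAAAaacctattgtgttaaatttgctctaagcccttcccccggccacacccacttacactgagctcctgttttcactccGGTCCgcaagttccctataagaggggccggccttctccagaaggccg
Both H4 genes Hist4h4 and Hist1h4c carried GGTCC shortly before the start; Hist1h4c also had 2 CCAAT matches, and Hist4h4 had no match to the other motifs. Hist1h1c carried the H1 box, AAACACA, upstream of 1 CCAAT match. The 250 bases before Hist1h4n, on the opposite strand at chr13:21832197-21832446, were identical to those of Hist1h4m at all 250 positions.

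The histone classes differed in these motifs. Of the 67 genes, 60 were matched to a RefSeq promoter on GRCm38.p6 (250 bases before to 50 after the start); Hist1h2ap, Hist1h2bc, Hist1h2be, Hist1h3a, Hist1h3f, Hist2h2be and Hist2h4 were not. CCAAT was present in all 6 H1, 17 H2A, 15 H2B and 10 H3 promoters matched, in 3 of 12 H4 promoters (25%), and in 37.4% of all 32851 promoters. The octamer was found in 7 of 17 H2A (41.2%) and 6 of 15 H2B promoters (40%) and in no H1, H3 or H4 promoter, beside 1.74% of all promoters. The H1 box stood in 5 of 6 H1 promoters (83.3%, all but Hist1h1a), in 2 H2A and 2 H2B promoters and in 7.18% of all. GGTCC was found in 11 of 12 H4 promoters (91.7%), against 45.5% of all, and the E2F motif in 5 H2A and 4 H2B promoters and in 0.813% of all. TATAAA occurred in 35 of 60 (58.3%) and in 13.6% of all promoters. These counts are a description: paired genes share much of their promoters, some promoters are copies of each other, and a match is not a bound site.

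**Figure D1:**
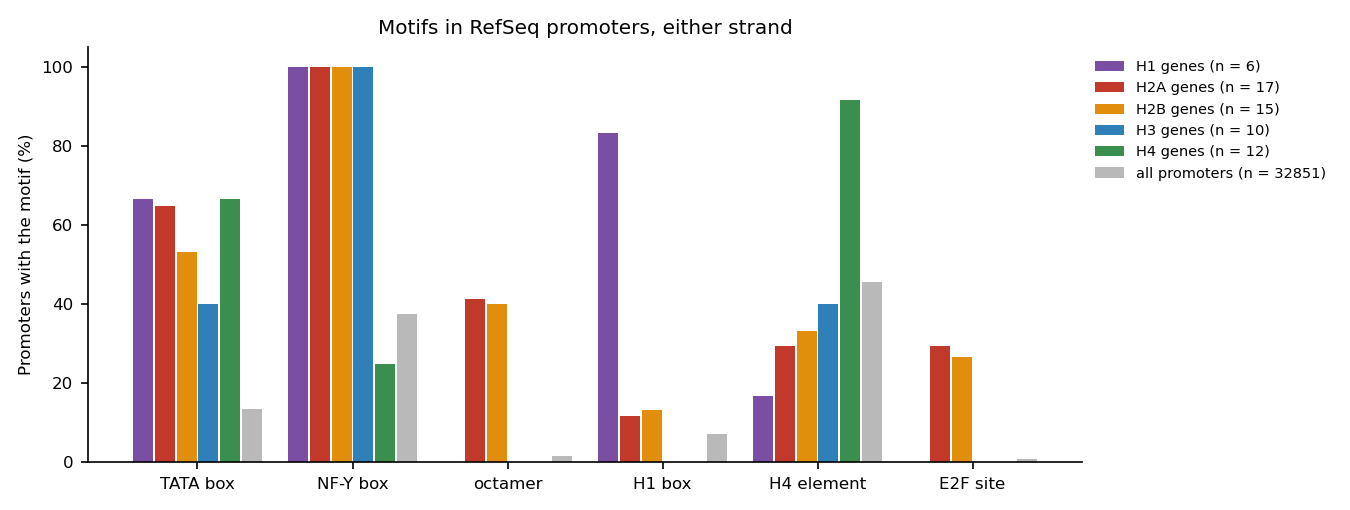
Share of RefSeq promoters (y axis, %) with each motif on either strand, by histone class and over all 32851 promoters (grey). The NF-Y box (CCAAT) is at 100% in H1, H2A, H2B and H3 and at 25% in H4, the octamer appears in H2A and H2B alone among the classes, the H1 box reaches 83.3% in H1 and the H4 element 91.7% in H4.

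For each peak the lists give its fold relative to the local mean of the input, with a −log10 p, and both the fragments at the summit and that local mean could be solved from the pair. The depths relative to the input were 2.24, 3.85 and 5.15, and pileups below are fragments divided by that depth. The lists are permissive, since they hold 1036304, 846027 and 900109 peaks with p up to 0.9, so that presence of a peak carries little information and its height is described instead. No promoter peak of a histone gene had a −log10 q above 0 in any list, whereas 401, 480 and 24 of the 21834 genes did. The highest −log10 p of a histone gene was 3.62, 2.96 and 2.45. For each gene and list the promoter peak with the highest fold was used.

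By pileup, the median histone promoter stood above the middle of all promoters in NG and HG+NT and below it in HG+miR-93, the last not in every subset. By fold, which takes the input into account, it was at the middle in NG and below it in HG+NT and HG+miR-93. Their median pileup was 6.70, 5.71 and 3.69, whereas the median over all 21834 promoters was 4.91, 4.67 and 4.66. Ranked by pileup within each list, the median histone gene was at percentile 62.2, 64.5 and 30.0. In HG+miR-93 the direction by pileup turned for the 24 genes whose surroundings are mostly found once in the genome, at percentile 59.7 and a pileup of 5.15, beside 4.86 for all genes with such surroundings, and the H1 and H4 genes were also above the middle, at 69.6 and 58.1. By fold it did not turn for the 24 genes, at percentile 41.2 beside 53.2 for all genes with such surroundings. The H4 genes were also below the middle by fold, at 35.5, and the H1 genes above it, at 55.4. The input was also higher at the histone promoters, with a median local mean of 3.0, 3.0 and 2.2 fragments against 2.0 over all genes in each list. The lists share 1 input, so local means that differ between lists belong to different summits. The median pileups of the histone genes thus partly compare different places. The median percentiles of the histone genes by fold were 50.9, 44.2 and 35.5, beside 50.9, 49.9 and 49.8 over all genes. These were lower than those by pileup in NG and HG+NT and higher in HG+miR-93. The pileups spanned 2.68 to 15.6, 2.34 to 13.5 and 1.75 to 13.8. A fold below 1, meaning fewer scaled fragments than the input's local mean, was listed for 3, 4 and 10 histone genes (4.48%, 5.97% and 14.9%), against 2.74%, 6.05% and 6.93% of all genes.

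**Figure D2:**
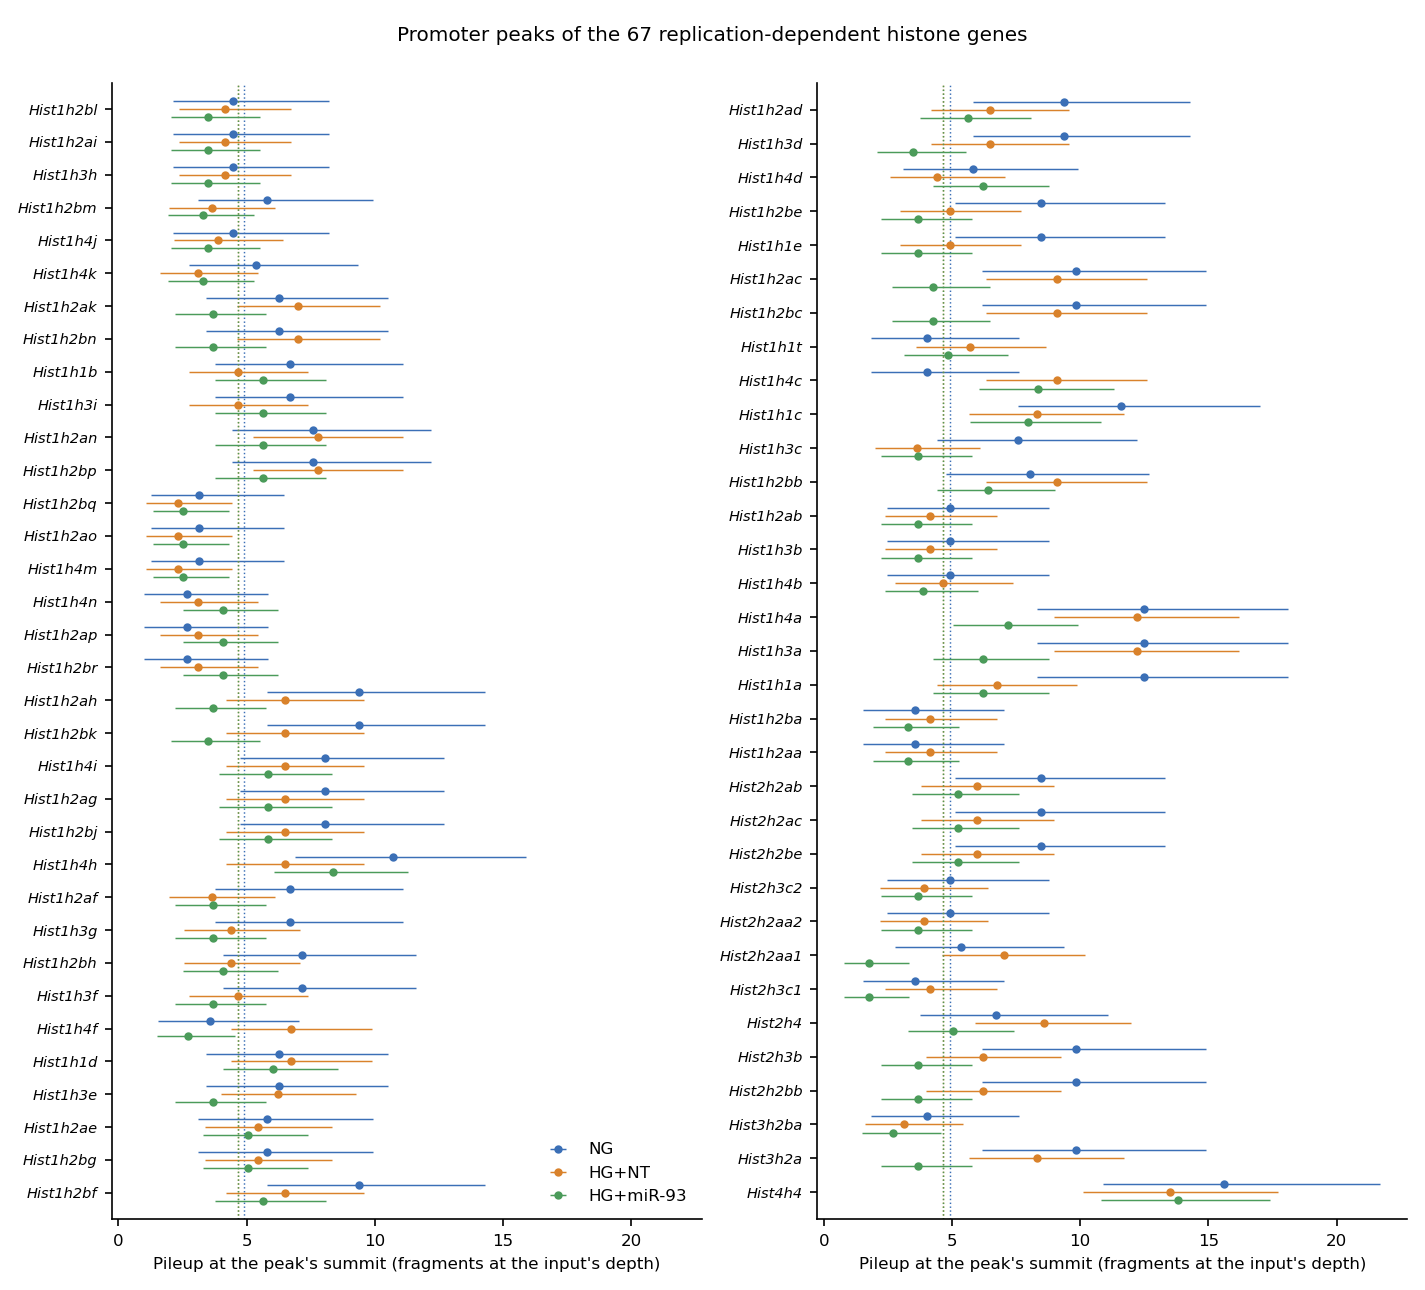
Pileup at the summit of the promoter peak (x axis, fragments at the input's depth) for each of the 67 genes in NG (blue), HG+NT (orange) and HG+miR-93 (green), with 95% Poisson intervals as bars and the median over all promoters as dotted lines. Hist4h4 has the highest pileup in all 3 lists, at 15.6, 13.5 and 13.8, and neighbouring genes often repeat the same values because they share a peak.

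Neighbouring genes were often covered by the same peak, so the 67 genes are not 67 measurements. They used 40, 42 and 44 distinct peaks. All 12 head-to-head pairs shared 1 peak in NG and HG+NT and 11 of 12 in HG+miR-93. The summit lay within 500 nt of a start for 37, 39 and 35 genes (55.2%, 58.2% and 52.2%, beside 61.2%, 57.8% and 57.1% of all genes), and the median peak of a histone gene was 5081, 3868 and 3090 bp wide. For the other genes the summit, and with it the pileup, belongs to a place farther away under the same peak.

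Copies of the histone genes limit what 36-nt reads can show. Within 500 nt of a gene's start, the median share of 36-mers found once in GRCm38.p6 was 64.3% for the histone genes and 100% over all genes. It was 92.9% in the 500 nt before the start and 38.2% in the 500 nt after it, where the conserved coding sequence lies. For 8 genes the share was at most 5%: Hist1h2bq, Hist1h2ao and Hist1h4m, their copies Hist1h2br, Hist1h2ap and Hist1h4n, and Hist2h3c1 and Hist2h3c2. No summit of these 8 lay within 500 nt of a start in any list, and those of the Hist1h4m block lay 10460 to 19393 nt away from its starts. Their median pileup was 3.13, 3.12 and 3.11, and the values of these genes come from the sequence around them. How multiply mapped reads were treated is not given in the sources used here. Over the 24 genes with a share of at least 75%, the median pileup was 7.59, 6.10 and 5.15.

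**Figure D3:**
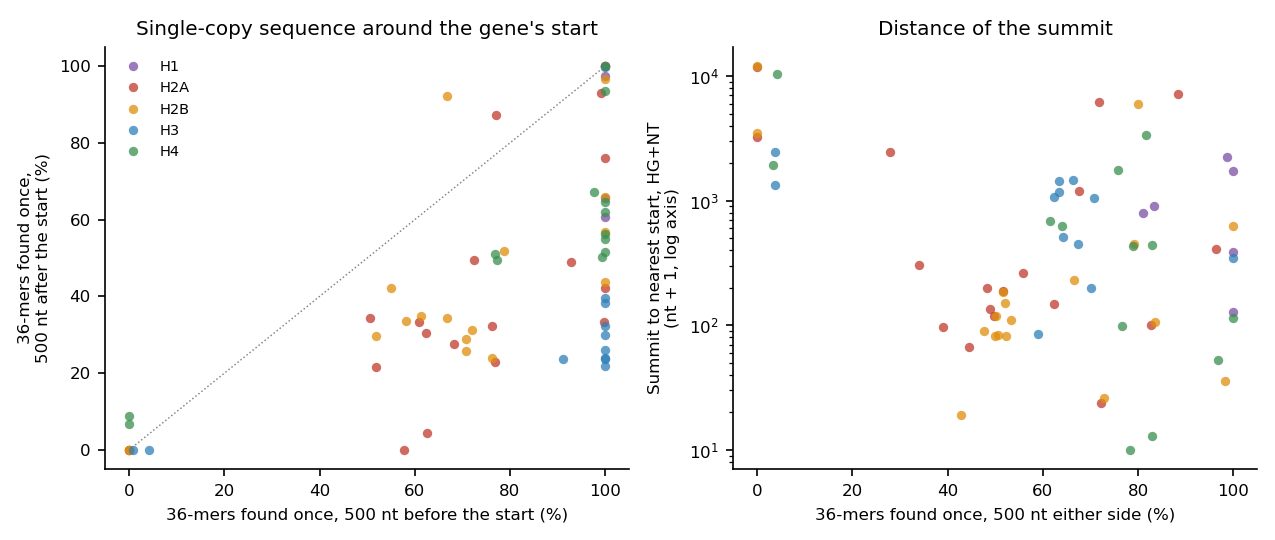
Left, share of 36-mers found once in the genome in the 500 nt after the start (y axis, %) against the 500 nt before it (x axis, %), 1 point per gene, coloured by class; most points lie under the dotted line of equality. Right, distance from the summit to the nearest start in HG+NT (y axis, nt + 1, log axis) against the share within 500 nt either side (x axis, %); the 8 genes at 5% or less all have summits more than 1000 nt away.

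The lone gene of the Hist4 cluster, Hist4h4, which encodes histone H4, had the highest pileup of all 67 in each list, with 35, 52 and 71 fragments. These are pileups of 15.6 (95% Poisson interval 10.9 to 21.7), 13.5 (10.1 to 17.7) and 13.8 (10.8 to 17.4), at percentiles 98.6, 96.4 and 99.1 of all promoters. Its summits lay 309, 114 and 235 nt downstream of the start, in sequence found once in the genome throughout (100%). Its fold was only 1.51, 1.96 and 1.64, since the input's local mean there was 10, 6.4 and 8.0 fragments. The 3 intervals overlapped.

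The 6 linker histone genes had median pileups of 7.59, 6.23 and 5.83. Hist1h1c had 11.6, 8.31 and 7.97 (26, 32 and 41 fragments), the highest of the class in HG+NT and HG+miR-93. Hist1h1a had 12.5 in NG, where its peak was the 1 shared with Hist1h3a and Hist1h4a and its summit lay 2236 nt upstream, and 6.75 and 6.22 from peaks with summits at 127 and 170 nt. Hist1h1b stood at 6.70, 4.67 and 5.64, Hist1h1d at 6.25, 6.75 and 6.02, and Hist1h1e, which shared its peaks with Hist1h2be, at 8.49, 4.93 and 3.69. No H1 gene had its summit within 500 nt in NG, as against 2 (HG+NT) and 4 (HG+miR-93). Relative to HG+NT, 0 of the 6 were below 1/1.5 in HG+miR-93, where 6.82% of all genes were, so that a count of 0 in so few genes is near the share of all genes.

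Among the core histones of the Hist1 cluster, the genes with the highest mean fold percentile were Hist1h2ae (H2A), Hist1h2bb (H2B), Hist1h3a (H3) and Hist1h4a (H4). Hist1h4a and Hist1h3a shared the Hist1 peak with the highest pileup in NG and HG+NT, with 28 and 47 fragments (pileups 12.5 and 12.2), and were listed with different peaks in HG+miR-93, of 37 and 32 fragments (7.19 and 6.22). Hist1h2bb had 8.04, 9.09 and 6.41, with its summits 228 to 271 nt upstream in all lists. Hist1h2ae and its partner Hist1h2bg had 5.81, 5.45 and 5.05 and the highest folds of their classes in HG+NT and HG+miR-93, 2.66 and 2.49, at percentiles 92.6 and 92.4. By class, the median pileup was 6.48, 5.97 and 3.69 for the 18 H2A genes, 7.37, 5.71 and 3.89 for the 18 H2B genes, 6.70, 4.54 and 3.69 for the 12 H3 genes and 5.36, 6.49 and 5.05 for the 13 H4 genes. The core classes thus had their lowest median in HG+miR-93, and H4 was the class whose median was highest in HG+NT.

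In the Hist2 cluster, Hist2h2ab, Hist2h2ac and Hist2h2be lay under 1 peak in each list, with pileups of 8.49, 5.97 and 5.25. Hist2h3b and Hist2h2bb shared a peak in NG and HG+NT (9.83 and 6.23) and had 3.69 each in HG+miR-93 from different peaks. The H4 gene Hist2h4 had 6.70, 8.57 and 5.05. Hist2h3c2 and Hist2h2aa2 stood at 4.91, 3.90 and 3.69, Hist2h2aa1 at 5.36, 7.01 and 1.75 and Hist2h3c1 at 3.57, 4.15 and 1.75, and these 4 belong to an stretch of duplicated sequence in which at most 33.9% of 36-mers were found once. In the Hist3 cluster, Hist3h2a had 9.83, 8.31 and 3.69 and Hist3h2ba 4.02, 3.12 and 2.72, the latter with Poisson intervals that overlapped in all lists. The 3 genes known for expression in testis, Hist1h1t, Hist1h2aa and Hist1h2ba, had pileups of 4.02, 5.71 and 4.86 (Hist1h1t) and of 3.57, 4.15 and 3.30 (the pair, with 1 peak). The 64 other histone genes had medians of 6.70, 5.97 and 3.79.

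To compare HG+NT with NG, each gene's pileup in HG+NT was divided by that in NG and then by the median of this ratio over all promoters (0.904), giving a relative pileup of 1 for the median promoter. The histone genes had a median relative pileup of 0.893, and 39 of 67 were below 1 (58.2%, against 49.9% of all genes). Above 1.5 were 3 genes (4.48%, where 11.8% of all genes were) and below 1/1.5 were 6 (8.96%, where 13.4% were), so extreme ratios were no more frequent than over all promoters. No histone gene had Poisson intervals apart with HG+NT lower, against 2.19% of all genes, and none had them apart with HG+NT higher (0.719%).

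The highest relative pileups for HG+NT over NG were those of the H4 genes Hist1h4c (2.5) and Hist1h4f (2.09) and of Hist1h1t (1.57), and the lowest those of Hist1h3c (0.529), Hist1h1a (0.597) and Hist1h2af (0.6). Hist1h4c had 9 fragments in NG with the summit at 388 nt and 35 in HG+NT with the summit at −12 nt. With the peak of the highest pileup at each promoter in place of the highest fold, Hist1h4c had 19 fragments in NG and a relative pileup of 1.20, Hist1h4f had 1.21 and Hist1h3c 1.22, the last on the other side of 1. These 3 ratios thus depended on which of several promoter peaks was taken. The other 3 stayed at the extremes with that peak, at 1.59 (Hist1h1t), 0.604 (Hist1h1a) and 0.526 (Hist1h2af). Where the summits lay within 500 nt in both lists (28 genes), the median was 0.989, and when peaks were required to have their summit in the window it was on the other side of 1, at 1.07.

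In HG+miR-93 the histone promoters had lower pileups than in HG+NT relative to other promoters. By fold the shift was smaller than between NG and HG+NT. The median change of fold percentile was -2.81 for HG+miR-93 over HG+NT and -8.86 for HG+NT over NG. Over all genes it was 0.0321 and 0.0916. The median relative pileup was 0.917, 52 of 67 genes were below 1 (77.6%, against 49.9% of all genes), none was above 1.5 (6.26% of all genes were) and 17 were below 1/1.5 (25.4%, where 6.82% of all genes were). Counted by distinct pairs of peaks, 15 of 47 were below 1/1.5 (31.9%), against 6.98% of the distinct pairs over all genes. Of the 17, 6 were H2A or H2B genes in head-to-head pairs, 3 other H2A or H2B genes, 5 H3 genes and 3 H4 genes, and none was an H1 gene. By cluster they were 11 of 54 in Hist1, 5 of 10 in Hist2 and 1 of 2 in Hist3. Poisson intervals were apart, with HG+miR-93 lower, for Hist1h3a and Hist2h2aa1 (2.99%), beside 1.9% of all genes, and for none with HG+miR-93 higher. Both compare different places: the summits of Hist1h3a lay at 1058 nt (HG+NT) and −1450 nt (HG+miR-93) and those of Hist2h2aa1 at −304 and 3129 nt, and with the peak of the highest pileup the relative pileups were 0.619 and 0.757.

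The pair Hist1h2ac and Hist1h2bc, whose shared promoter is printed above, had a lower pileup in HG+miR-93 in a single place. It had 22, 35 and 22 fragments, with the summit 86 to 165 nt upstream of both starts in all 3 lists. The pileups were 9.83 (6.16 to 14.9), 9.09 (6.33 to 12.6) and 4.28 (2.68 to 6.47), a relative pileup of 0.494 for HG+miR-93 over HG+NT, and the intervals of HG+NT and HG+miR-93 overlapped only at their ends. The same value was obtained with the peak of the highest pileup. The fold was 1.55, 1.68 and 0.879, so the peak in HG+miR-93 was below the input's local mean. Of the 36-mers within 500 nt of the starts, 49.0% (Hist1h2ac) and 50.1% (Hist1h2bc) were found once. Hist1h4a, with 12.2 (HG+NT) and 7.19 (HG+miR-93) from summits 98 and 37 nt upstream, had 0.619, and the pair Hist1h2ak and Hist1h2bn, at 7.01 and 3.69, had 0.553. Hist3h2a had 8.31 and 3.69 with summits at −100 and −116 nt (0.467), and 0.688 with the peak of the highest pileup. The folds in HG+NT and HG+miR-93 were 2.20 and 1.78 for Hist1h4a and 2.02 and 1.02 for Hist3h2a. For Hist1h2ak and Hist1h2bn they were 1.60 and 0.938. In contrast, the relative pileups of Hist4h4 (1.07), Hist1h1c (1.01) and Hist1h4c (0.965) were near 1.

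The lowest relative pileups for HG+miR-93 over HG+NT were those of Hist2h2aa1 (0.262), Hist1h4f (0.423) and Hist2h3c1 (0.442), and each involved a summit more than 1000 nt from the gene's start. Hist2h2aa1 had 27 fragments with the summit at −304 nt in HG+NT and 9 with the summit at 3129 nt in HG+miR-93, and 0.757 with the peak of the highest pileup. Hist1h4f had 0.937 with that peak, whereas Hist2h3c1 stayed at 0.442. The highest were those of Hist1h4d (1.48) and of Hist1h4n, Hist1h2ap and Hist1h2br (1.38), the last 3 a block without sequence found once in the genome at its H2A and H2B starts. Among the 30 genes with both summits within 500 nt, 7 were below 1/1.5 (23.3%) and none above 1.5, where 5.32% and 3.32% of all such genes were, and their median was 0.886 beside 0.957.

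**Figure D4:**
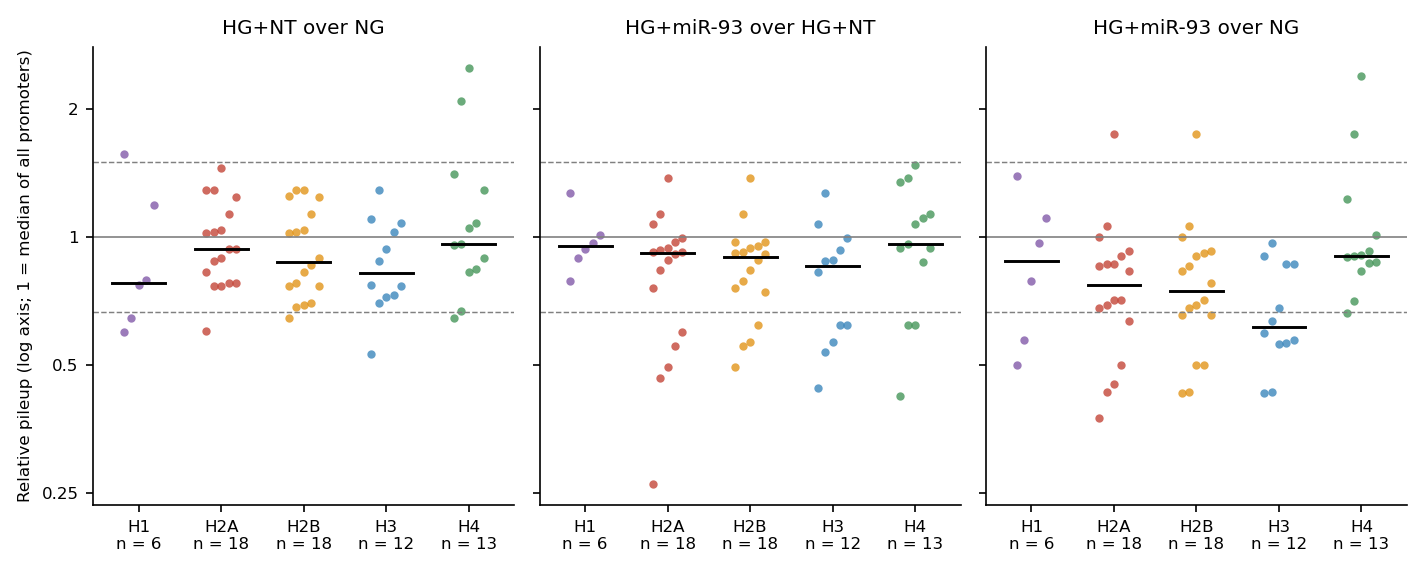
Relative pileup of each histone gene (y axis, log axis, 1 = median of all promoters) by class for the 3 comparisons, with the class median as a bar and dashed lines at 1.5 and 1/1.5. For HG+miR-93 over HG+NT no gene lies above 1.5 and 17 lie below 1/1.5, 14 of them H2A, H2B or H3 genes.

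Between the outer conditions, HG+miR-93 and NG, the median relative pileup was 0.833 and 55 of 67 genes were below 1 (82.1%, against 49.9% of all genes). Below 1/1.5 were 21 genes (31.3%, where 14.0% of all genes were) and above 1.5 were 4 (5.97%, where 12.9% were), of which 3 form the Hist1h4n block and the other was Hist1h4c (2.39). All 12 H3 genes were below 1, with a class median of 0.614, beside 0.772 for H2A, 0.744 for H2B, 0.878 for H1 and 0.900 for H4. Intervals were apart, with HG+miR-93 lower, for Hist1h2ah, Hist1h2bk, Hist1h3d, Hist2h3b, Hist2h2bb and Hist3h2a (8.96%, beside 3.49% of all genes). The summits of Hist1h2ah were 119 and 61 nt upstream in NG and HG+miR-93, whereas those of Hist1h2bk (−183 and 856 nt), Hist1h3d (−1422 and 944 nt) and Hist2h2bb (−403 and 7602 nt) were at different places. This comparison shares its lists with the others and adds no separate evidence.

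The count of histone promoters among the strongest peaks was lowest in HG+miR-93, while the order of NG and HG+NT depended on how many peaks were taken. Of the 20000 strongest peaks by −log10 p, at least 1 lay at the promoter of 26 histone genes for NG (38.8%, where 33.4% of all genes had 1), of 14 for HG+NT (20.9%, where 25.8% had) and of 5 for HG+miR-93 (7.46%, where 21.5% had). The 5 genes in HG+miR-93 were Hist1h2ae, Hist1h2bg, Hist2h2ab, Hist2h2ac and Hist2h2be, which lie under 2 shared peaks. Among the 5000 strongest the counts were 13, 5 and 2 (19.4%, 7.46% and 2.99%, against 18.7%, 13.9% and 10.4% of all genes), and among the 50000 strongest 26, 26 and 17 (38.8%, 38.8% and 25.4%, against 38.1%, 44.6% and 41.1%), the same count for NG and HG+NT.

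**Figure D5:**
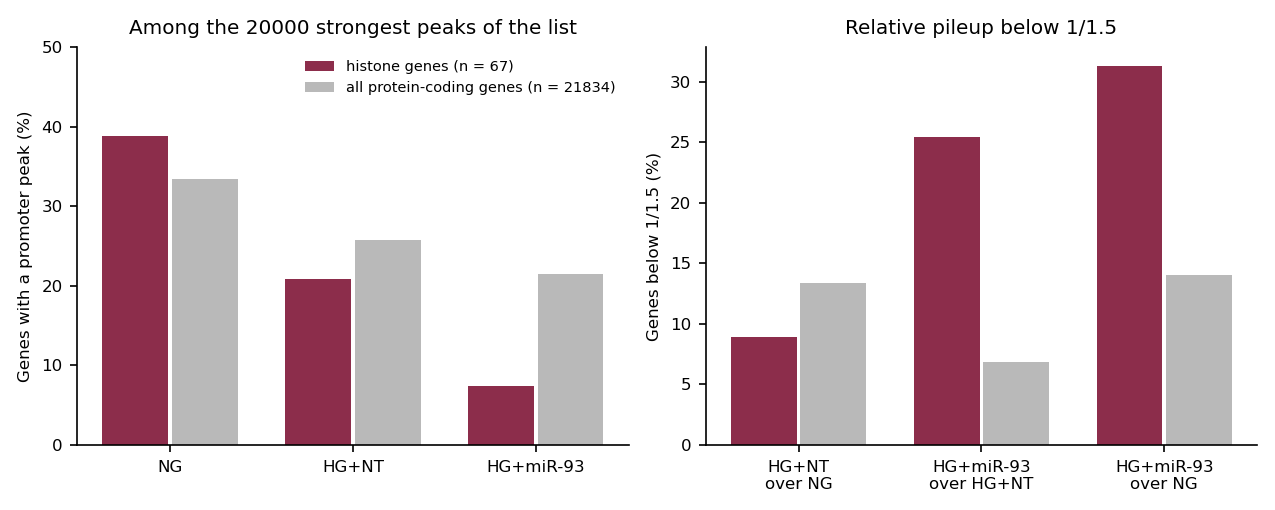
Left, percentage of the 67 histone genes (dark) and of all 21834 genes (grey) with a promoter peak among the 20000 strongest of each list; the dark bars go from 38.8% to 7.46% and the grey bars from 33.4% to 21.5%. Right, percentage of genes with a relative pileup below 1/1.5 in each comparison; the dark bar is under the grey bar for HG+NT over NG (8.96% and 13.4%) and over it for HG+miR-93 over HG+NT (25.4% and 6.82%).

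High promoters in general were lower in HG+miR-93, which bears on the comparison. The 5459 genes with the highest mean pileup over the lists had a median of 0.892 for HG+miR-93 over HG+NT. The 13 histone genes among them had a median of 0.911, which was not lower. Below 1 were 71.2% of the 5459 genes and 76.9% of the 13 histone genes. Below 1/1.5 were 552 of the 5459 genes (10.1%) and 5 of the 13 (38.5%). With each gene set against promoters of like mean pileup (10 bins), 16 of 67 histone genes were below 1/1.5 (23.9%) and 6.89% of all genes, and with 10 bins of GC content 17 (25.4%) and 7.03%. With the peak of the highest pileup the counts were 12 of 67 (17.9%) and 3.62%. The share of cells in S phase and the depth of single replicates were not measured here, and their part in these values was not tested.

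The paired and unpaired H2A and H2B genes are set side by side here without a test. For HG+miR-93 over HG+NT the 24 paired H2A and H2B genes had a median of 0.898 with 6 below 1/1.5, and the 12 unpaired a median of 0.920 with 3 below, where 6.82% of all genes were. For HG+NT over NG the medians were 1.03 and 0.818, and 0 and 2 genes were below 1/1.5, where 13.4% of all genes were. The paired genes had their summits nearer to a start, at a median of 219, 148 and 201.5 nt, against 406.5, 266 and 928.5 nt for the unpaired.

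The other coding genes inside the Hist1 span had a median on the other side of 1 for HG+miR-93 over HG+NT, but not for HG+NT over NG. These 49 genes, mostly vomeronasal receptor genes (Vmn1r), had low pileups of 3.13, 2.86 and 2.72 in the median. For HG+miR-93 over HG+NT their median was 1.05, with 5 above 1.5 and 2 below 1/1.5 (10.2% and 4.08%, against 6.26% and 6.82% of all genes). The lowest was Vmn1r198 (0.604) and the highest Vmn1r203 (2.02). For HG+NT over NG their median was 0.918, beside 0.893 for the histone genes. Here 1 gene was above and 6 were below (2.04% and 12.2%, against 11.8% and 13.4% of all genes). The extremes were Slc17a3 (0.429), of the phosphate transporter family, and Vmn1r211 (1.54).

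Genes for factors that act on histone genes had higher promoters than the histone genes themselves. The 18 regulators had median pileups of 8.93, 8.44 and 7.97. For HG+miR-93 over HG+NT their median was 0.907, with none below 1/1.5 and Coil, which encodes coilin, above 1.5 (2.03). Over all genes, 6.82% were below and 6.26% above. The lowest regulator was Zfp473, whose product acts in histone mRNA processing (0.690). For HG+NT over NG their median was 1.04, the highest was Casp8ap2 (5.04, with 6, 47 and 45 fragments) followed by Pou2f1 (3.92, with 10, 61 and 67), and the lowest Ccne2, a cyclin E gene (0.514). Npat had 26, 52 and 60 fragments, pileups of 11.6, 13.5 and 11.7.

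The 11 replacement histone genes had median pileups of 9.38, 8.05 and 6.61 and medians of 0.857 for HG+NT over NG and 0.943 for HG+miR-93 over HG+NT. H2afj was at the extremes of both, at 1.59 and 0.378 (21, 52 and 25 fragments), beside H3f3b at 0.703 in the first and H2afy at 1.35 in the second. The 10 chaperone genes had 10, 8.96 and 7.77, with medians of 1.06 and 0.809. Their extremes were Atrx, a partner in H3.3 deposition, at 1.74 and 0.496, and Chaf1a, a subunit gene of the replication-coupled assembly factor, at 0.363 and 1.15. As a check of the cell type, 7 of 8 podocyte marker genes (all but Wt1) had a promoter peak in all 3 lists, as did 21834 of 21938 protein-coding genes. Wt1 had no value in any list, although the paper shows DNase hypersensitivity at this locus, and the reason was not tested. The 7 markers had median pileups of 5.81, 4.93 and 5.25, and the 10 markers of other kidney cells and blood had 4.02, 4.03 and 4.66. Lists this permissive do not tell the cell type by presence of a peak.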

How the data were processed

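DNase-Seq libraries of NG, HG+NT and HG+miR-93 podocytes (2 replicates each) and 1 genomic DNA input were sequenced as single reads. Per the labels and the study's methods, the authors used CASAVA 1.8.2, TrimGalore!, Bowtie (mm10), a duplicate filter and MACS2 against the input, with DNase-seq parameters whose values are not given in the sources used here. The deposited lists, 1 per condition, give a fold (ratio of fragments to the input's local mean, each plus 1), −log10 p and −log10 q. Fragments and local mean were solved from fold and −log10 p on a grid of 0.02 (tolerance 2e-05), uniquely for at least 99.998% of peaks, against 0.0586% to 0.214% of mismatched pairs. Starts were taken from GENCODE vM21, protein-coding transcripts only. Intervals are 95% exact Poisson. Members were taken by their symbols. The relative pileup as a measure, and the lists of other genes, were chosen with earlier results of these data known. The genes named were all Hist2, Hist3, Hist4 and H1 genes, the highest of each core class in Hist1, the 3 highest and 3 lowest ratios in 2 comparisons, the testis genes, and the extremes of each list of other genes; others named (the pairs Hist1h2ac and Hist1h2bc, Hist1h2ak and Hist1h2bn, genes that share a peak, genes whose intervals were apart, Npat and Pou2f1) were chosen after their values were seen. The steps were tested on simulated data. Python 3.11.15, numpy, pandas, scipy, numba and matplotlib were used. Motif and 36-mer searches read both strands of GRCm38.p6.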

Additional observations from a re-analysis of the deposited data

How the results depend on the processing

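No paired analysis was possible because each condition has 1 joint list, and no replicate was left out for the same reason. Of 168 values from alternative settings, 126 stayed within their limits, 40 moved and 2 changed side. The median relative pileup for HG+NT over NG, 0.893, was 1.07 when the summit had to lie inside the window and 1.08 when the highest pileup was taken as well; the median for HG+miR-93 over HG+NT stayed below 1 in every setting run. With the summit inside, 31 histone genes remained, their median fold percentile was 37.4 (NG) and 14.0 (HG+miR-93), its median change for HG+miR-93 over HG+NT was -15.0, 1 gene was below 1/1.5 for HG+NT over NG (all genes 10.2%), and 2 were above 1.5 and 8 below 1/1.5 both for HG+miR-93 over HG+NT (all genes 6.65% and 5.67%) and over NG (12.6% and 11.0%). With the highest pileup as well, again 31 genes, the counts above and below were 1 and 1 for HG+NT over NG (all genes 11.0% and 7.98%), 1 and 7 for HG+miR-93 over HG+NT (4.42% and 3.39%) and 1 and 7 over NG (10.7% and 8.35%). The highest pileup alone left 1 gene above 1.5 for HG+NT over NG (9.86% of all genes). Windows of 1000 nt gave 5 genes above 1.5 for HG+NT over NG (12.1% of all genes) and 2 for HG+miR-93 over HG+NT (7.2%). The HG+NT percentile was 50.3 with 1 TSS per gene and 64.5 when ranked by pileup, and that of NG 39.0 with summed folds. Counting each set of peaks once left 2 above 1.5 for HG+miR-93 over NG. Without centring, HG+NT over NG had a median of 0.808 and 13 below 1/1.5. Centred on the same chromosome, 3 were below, and the median for HG+miR-93 over NG was 0.885. At the lower threshold tried, 11 were above and 24 below for HG+NT over NG, 7 above for HG+miR-93 over HG+NT and 32 below for HG+miR-93 over NG. At the higher threshold of 2, 0 genes were below for HG+NT over NG, 6 for HG+miR-93 over HG+NT and 7 for HG+miR-93 over NG, with 1 above in the last. Shares over all genes are not given for either threshold, the ratio without centring, the centring by chromosome or the sets of peaks counted once. The counts under those settings therefore cannot be set against all promoters. Among the 5000 strongest peaks there were 13 (NG), 5 (HG+NT) and 2 (HG+miR-93) genes, and among 50000, 26 (HG+NT) and 17 (HG+miR-93). The cause of these shifts was not tested. With 6, 10 and 12 fragments at the median summit, depth limits every ratio of single genes.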

Other observations

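In HG+miR-93, 12 of the 44 distinct peaks of the histone genes had exactly 19 fragments at the summit. The same number was found for 2 of 40 peaks in NG and 1 of 42 in HG+NT. Over all genes, 19 fragments were found for 2.93% (NG), 4.13% (HG+NT) and 3.97% (HG+miR-93), which are shares of genes and not of distinct peaks. Some genes below 1/1.5 for HG+miR-93 over HG+NT had this number in HG+miR-93. They were Hist1h2ak, Hist1h2bn, Hist1h2ah, Hist1h3e, Hist2h3b, Hist2h2bb and Hist3h2a. The pattern was noticed after the values were seen and was not tested. It is shared by genes of different clusters, such as Hist3h2a, Hist2h3b, Hist1h3c and Hist1h2be, and gives the pileup of 3.69 that is also their median in this list.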
